A study of Mus musculus with 6 samples.

Results

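The nuclear genes for the mitochondrial respiratory chain and ATP synthase were examined in mouse hypothalamus. They were taken by gene symbol, as all symbols that begin with Nduf and a subunit letter (a, b, c, s or v) and number, with Uqcr, with Cox and a number from 4 to 8, or with Atp5, together with Sdha, Sdhb, Sdhc and Sdhd. This rule found 84 of the 24513 genes in the count tables, of which 37 belong by symbol to complex I, 4 to complex II, 8 to complex III, 18 to complex IV and 17 to complex V, the ATP synthase. The rule used no measured value. Ndufa4 was grouped by its symbol, although its protein is now assigned to complex IV. The other members, Atp5sl and Ndufa4l2 among them, were also placed by symbol alone, whether or not their proteins are subunits. RNA was sequenced from the hypothalamus of 3 wild-type (WT) and 3 NS-DADm mice, 1 library per mouse. All mice were of the C57BL/6 strain and aged 3 to 4 months. As known for this line rather than from the sample labels, NS-DADm mice carry mutations in the nuclear receptor corepressors NCOR1 and SMRT that keep them from activating the histone deacetylase HDAC3, in every cell of the body.

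The respiratory chain sits in the inner mitochondrial membrane. Complexes I and II take electrons from NADH and succinate and pass them through ubiquinone to complex III, and cytochrome c carries them on to complex IV, which reduces oxygen. Complexes I, III and IV pump protons, and complex V uses the proton gradient to make ATP. Neurons depend heavily on this pathway for the energy of ion pumping and synaptic transmission. Complex II is encoded wholly in the nucleus, while the others also hold subunits encoded in mitochondrial DNA, which were not analysed here.

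The libraries held 24.2 to 27.6 M reads on genes, and the members took 0.832 to 0.921% of them. All 9 hypothalamus markers on a list had reads in every library, with summed normalised read counts (CPM, counts per 1000000 reads after TMM scaling) of 657, 717 and 712 in the WT libraries, against 681, 801 and 770 in the NS-DADm ones. Of these 9 markers 1 was fitted below 0, and Trh was called higher (log2 fold change 0.26; edgeR, adjusted p = 0.042). The libraries also held markers of the neighbouring tissues, in unequal amounts. Values for the libraries of a group are given in the order of their replicate numbers, 1, 2 and 3. Summed CPM of 12 thalamus markers was 1177, 814 and 989 in the WT libraries, against 614, 586 and 629 in the NS-DADm ones, and that of 8 anterior pituitary markers was 39.3, 54.5 and 111 in the WT libraries, against 200, 2015 and 199 in the NS-DADm ones. The 7 neuron markers summed to 4561, 4456 and 4628 CPM in WT libraries, with 4214, 4219 and 4243 CPM in the NS-DADm ones, without overlap between the groups. None of the 7 was called, and 5 of 7 were fitted below 0. The 5 microglia markers summed to 158, 155 and 160 CPM in the WT libraries, against 134, 141 and 141 in those of NS-DADm mice. These groups also did not overlap, with 5 of 5 markers fitted below 0 and none called. The sums of 6 mature oligodendrocyte and 5 astrocyte markers overlapped between groups, and none was called. Fitted values were below 0 in 5 of 6 and 4 of 5 of these. Their median log2 fold changes were -0.18 and -0.15, and the highest 0.22 and 0.11. Without adjustment, p was under 0.05 (edgeR) for 4 of 7 neuron, 3 of 5 microglia, 5 of 6 oligodendrocyte and 3 of 5 astrocyte markers. Of all tested genes, 6.46% were lower and 4.40% higher at that level. In whole tissue, fewer cells of a type and less RNA per cell cannot be told apart, and the part of these differences in tissue makeup in the members' values was not tested.

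No member was called. Of the 84, 80 had enough reads to be tested, and 0 were higher and 0 lower in NS-DADm mice at an adjusted p under 0.05 (edgeR quasi-likelihood test, Benjamini-Hochberg adjustment over 15894 genes), a threshold that 0.573% of all tested genes passed as lower and 0.0818% as higher. Without adjustment, 11 members had a p under 0.05, all of them with lower values in NS-DADm, where 6.46% of all tested genes were lower and 4.40% higher at that level. They were Ndufs4, Ndufa11, Ndufa10, Ndufs3 and Ndufb7 of complex I, Cox6a2, Cox6a1, Cox6c and Cox7b of complex IV, and Atp5e and Atp5h of complex V. The count of members called was also 0 with limma voom, where 0.472% of genes were called lower, and 1 with DESeq2, namely Cox6a2.

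Most members lay slightly below 0 on the scale of fitted log2 fold changes (NS-DADm against WT). Of the 80 tested members 69 did, against 48.4% of all tested genes, and the median over members was -0.07 (a change of -4.51%) against 0.004 over all genes. The members ranged from -1.25 to 0.11, with standard errors (SE) of 0.043 to 0.36 and a median SE of 0.061. In 18 of the 80 tested members every NS-DADm library lay below every WT library, against 8.93% of all tested genes. In 1 of the 80, Atp5s, every NS-DADm library lay above every WT library, against 7.86% of all tested genes. The 95% interval of the fold change lay within 1.2-fold in either direction for 60 of the 80 members, against 51.8% of all tested genes. The mostly lower values rested in part on WT 1. This library had the highest value of the 6 in 50 of the 80 members, against 24.0% of all tested genes, and without it the members' median was -0.03, with 56 of 80 below 0. Without WT 2 the median was -0.10 and 74 of 80 lay below 0.

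**Figure D1:**
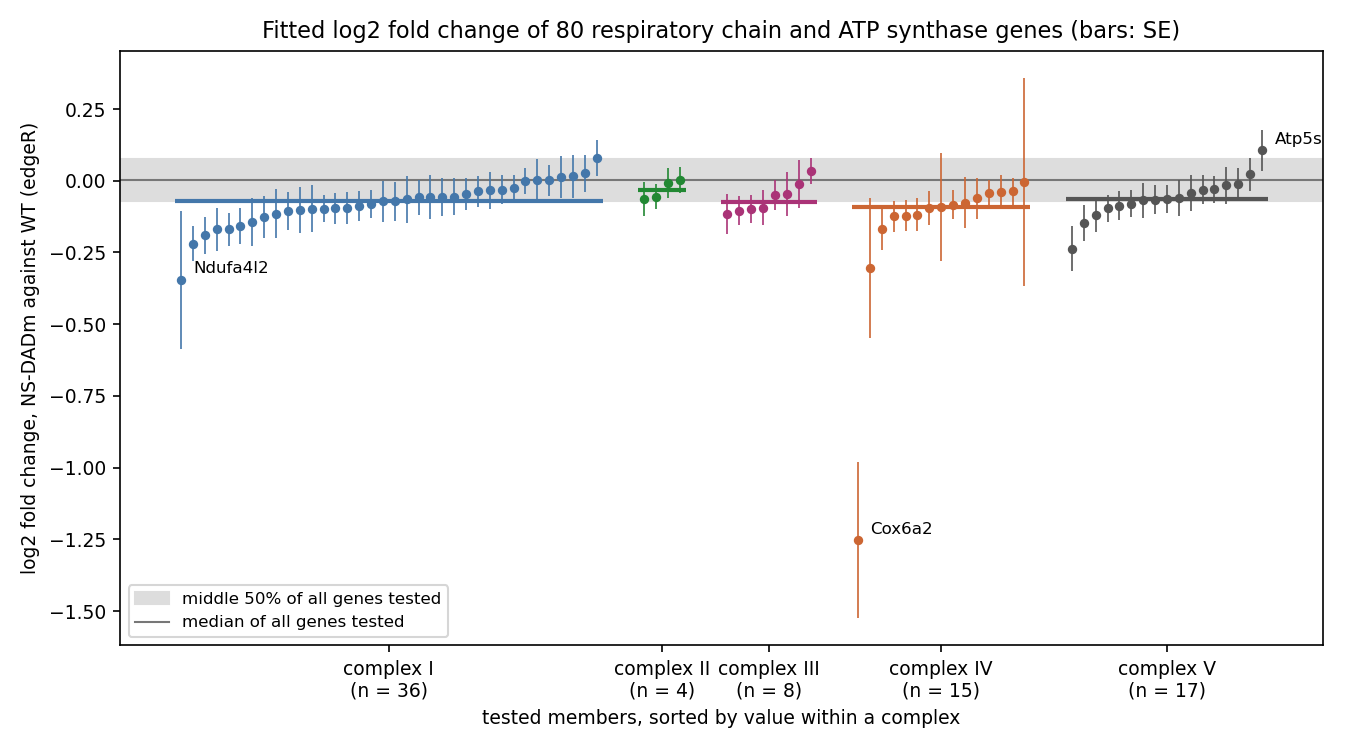
Fitted log2 fold change (NS-DADm against WT, vertical axis) of the 80 tested members, sorted within complexes I to V; points are genes, bars are SE, thick lines are the medians of the complexes, and the grey band holds the middle 50% of all tested genes. Of the members, 69 lie below 0, most by less than 0.2, and Cox6a2 of complex IV stands apart at -1.25.

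The 5 complexes differed little in their medians. The median log2 fold change was -0.07 for complex I (36 tested, 29 below 0), -0.03 for complex II (4 tested, 3 below 0), -0.07 for complex III (8 tested, 7 below 0), -0.09 for complex IV (15 tested, 15 below 0) and -0.06 for complex V (17 tested, 15 below 0). The smallest adjusted p in edgeR was 0.16 in complex I, 0.71 in complex II, 0.50 in complex III, 0.092 in complex IV and 0.28 in complex V. No difference between complexes was tested.

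Summed over its members, each complex had a lower mean in NS-DADm mice by a few percent. The sum for complex I was 2549, 2350 and 2414 CPM in the WT libraries, against 2287, 2374 and 2314 in those of NS-DADm mice, a change of -4.62%. Here the groups overlapped, since NS-DADm 2 lay above WT 2. For complex II the sums were 824, 809 and 803 CPM in WT libraries, with 779, 795 and 790 CPM in the NS-DADm ones (-2.997%), and for complex III they were 830, 801 and 831 CPM in the WT libraries, against 769, 819 and 784 in those of NS-DADm mice (-3.67%). The complex II sums did not overlap between groups, and the complex III sums did. Sdha held most of the complex II sum (558 of 812 CPM, WT means), while Sdhb, Sdhc and Sdhd each overlapped between groups. For complex IV the sums were 1397, 1245 and 1291 CPM in WT libraries, with 1229, 1241 and 1237 CPM in the NS-DADm ones (-5.73%), and for complex V they were 3614, 3320 and 3363 CPM in the WT libraries, against 3225, 3307 and 3212 in those of NS-DADm mice (-5.36%). In both of these WT 1 was the highest library, WT 2 was the lowest WT library, and the gap from WT 2 to the nearest NS-DADm library was small.

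**Figure D2:**
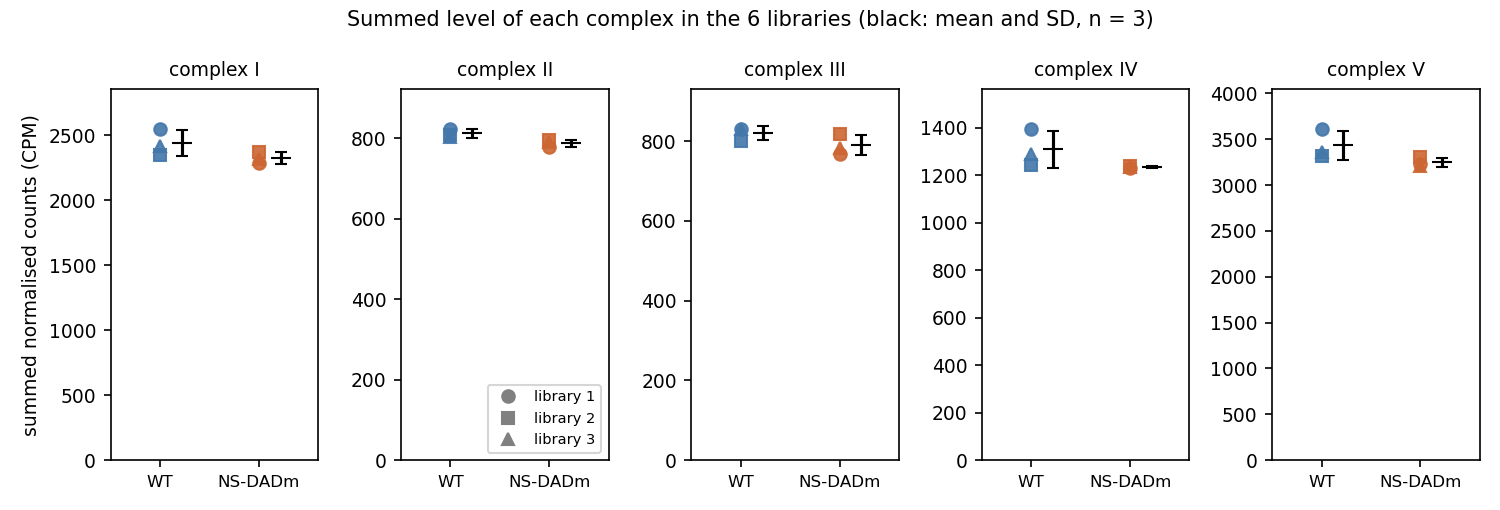
Summed normalised read counts (CPM, vertical axes from 0) of the members of complexes I to V in the 3 WT and 3 NS-DADm libraries; each symbol is a library and black marks are the mean and SD (n = 3). WT 1 is the highest of the 6 libraries in complexes I, II, IV and V, and complexes I and III overlap between groups.

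Promoter letters are shown for Cox6a1 of complex IV and Atp5e of complex V, the members of their complexes with the smallest p among those with a promoter entry, because both hold motifs long associated with respiratory genes. They are the 250 bases before the RefSeq start (build GRCm38.p6, 5′ to 3′ on the gene's strand), from chr5:115348959-115349208 on the minus strand and chr2:174464102-174464351 on the minus strand. Capitals mark matches to the NRF1 motif CGCNTGCGC and to the ETS-family motif CCGGAAG, on either strand.
Cox6a1: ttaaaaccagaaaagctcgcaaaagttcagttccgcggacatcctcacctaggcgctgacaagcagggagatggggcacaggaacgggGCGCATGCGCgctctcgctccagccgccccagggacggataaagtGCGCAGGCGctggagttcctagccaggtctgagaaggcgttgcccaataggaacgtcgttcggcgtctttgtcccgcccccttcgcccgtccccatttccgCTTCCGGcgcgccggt
Atp5e: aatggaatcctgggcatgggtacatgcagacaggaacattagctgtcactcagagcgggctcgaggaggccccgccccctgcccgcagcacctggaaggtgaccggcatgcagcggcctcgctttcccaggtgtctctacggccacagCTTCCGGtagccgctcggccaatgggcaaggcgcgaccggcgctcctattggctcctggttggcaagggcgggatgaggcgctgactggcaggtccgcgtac
Cox6a1 held NRF1 letters on the reverse strand from 162 and 117 bases before the start, overlapped at the first place by a match on the given strand from 161 bases, and ETS letters on the reverse strand 16 bases before it. Atp5e held ETS letters on the reverse strand 102 bases before the start. NRF1, or nuclear respiratory factor 1, and the ETS factor GABP are activators of many nuclear genes for mitochondrial proteins.

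Such letters were common among the members. RefSeq windows of 300 bases (250 before to 50 after the start) were found for 66 of the 84 members, 71 windows in all. Searched on both strands, the NRF1 motif was in 21 of the 71 (29.6%) against 6.25% of 32851 windows of all genes, and the ETS motif in 16 (22.5%) against 8.86%. Either was in 31 windows (43.7%, against 13.9%) and both were in 6. The NRF1 motif was in 9 windows of complex I genes, 2 of complex II, 2 of complex III, 1 of complex IV and 7 of complex V. The motif of YY1, AANATGGCG, was in 10 windows (14.1%, against 2.38%), and that of the estrogen-related receptors, TCAAGGTCA, in 2 (2.82%, against 0.423%). The 4 motifs do not contain one another. These counts describe letters in a window and do not show binding.

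In complex I, NADH dehydrogenase, 5 of the 36 tested members were lower at an unadjusted p under 0.05, against 6.46% of all tested genes. Ndufs4, an accessory subunit whose loss in mice gives a Leigh-like encephalopathy (chromosome 13, 114287795 to 114388258), measured 40.3, 38.4 and 42.3 CPM in WT libraries, with 33.1, 35.2 and 35.7 CPM in the NS-DADm ones. All NS-DADm libraries lay below all WT libraries. The log2 fold change was -0.22 ± 0.061 SE (95% interval -0.35 to -0.09; edgeR, adjusted p = 0.16). Ndufa11, an accessory subunit of the membrane arm (chromosome 17, 56717767 to 56722141), measured 52.0, 50.2 and 55.0 CPM in the WT libraries, against 42.4, 48.8 and 46.4 in those of NS-DADm mice. These groups also did not overlap, with a log2 fold change of -0.19 ± 0.064 SE (edgeR, adjusted p = 0.27). Ndufa10 had a log2 fold change of -0.17, without overlap, and Ndufs3, a core subunit of the matrix arm, one of -0.16, with NS-DADm 2 above WT 2 (edgeR, adjusted p = 0.28 and 0.37). In all, 9 of the 36 tested complex I members had NS-DADm wholly below WT, against 8.93% of all tested genes. An interval within 1.2-fold was seen in 25 of the 36, against 51.8% of all tested genes.

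Complex II, succinate dehydrogenase, belongs to both the respiratory chain and the citric acid cycle. All 4 of its genes had intervals within 1.2-fold, against 51.8% of all tested genes. Sdha, the catalytic flavoprotein (chromosome 13, 74322254 to 74350280), measured 564, 563 and 546 CPM in WT libraries, with 532, 544 and 533 CPM in the NS-DADm ones. The groups did not overlap, but WT 3 and NS-DADm 2 were close, and the log2 fold change was -0.06 ± 0.043 SE (95% interval -0.15 to 0.04; edgeR, adjusted p = 0.71). Sdhb, the iron-sulfur subunit, measured 111, 107 and 108 CPM in the WT libraries, against 109, 108 and 110 in those of NS-DADm mice. Its groups overlapped fully, with an interval of -0.10 to 0.10 for the log2 fold change. Of the membrane anchors, Sdhc measured 76.1 ± 4.9 CPM in WT and 72.8 ± 3.3 in NS-DADm (SD, n = 3), and Sdhd 69.4 ± 3.1 and 69.1 ± 1.6.

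Complex III, the cytochrome bc1 complex, had 7 of 8 members with intervals within 1.2-fold, against 51.8% of all tested genes. Uqcrc1, a core subunit that does not carry electrons (chromosome 9, 108936633 to 108949623), measured 234, 223 and 229 CPM in WT libraries, with 203, 227 and 209 CPM in the NS-DADm ones. NS-DADm 2 lay within the WT range, and the log2 fold change was -0.10 ± 0.051 SE (edgeR, adjusted p = 0.50). Uqcrb, a ubiquinone-binding subunit (chromosome 13, 66900617 to 66905378), measured 59.3, 60.2 and 60.3 CPM in the WT libraries, against 55.6, 55.8 and 56.4 in those of NS-DADm mice. Both groups were tight and did not overlap, yet the log2 fold change was only -0.10 ± 0.049 SE (95% interval -0.21 to 0.01; edgeR, adjusted p = 0.51). Uqcr10 and Uqcrh, small subunits, had log2 fold changes of -0.12 and -0.09.

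Complex IV, cytochrome c oxidase, held the member with the largest fitted difference. Cox6a2, the heart and skeletal muscle form of subunit VIa, also known from fast-spiking interneurons (chromosome 7, 128205435 to 128206387, minus strand), measured 6.33, 2.78 and 4.89 CPM in WT libraries, with 2.05, 1.88 and 1.94 CPM in the NS-DADm ones. These levels came from 173, 76 and 129 counts in WT and 50, 52 and 51 in NS-DADm. The NS-DADm libraries were nearly equal and all below WT, and the WT libraries differed among themselves by more than the NS-DADm mean.

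The fitted Cox6a2 level was 2.38-fold lower in NS-DADm mice (log2 fold change -1.25 ± 0.27 SE, 95% interval -1.87 to -0.64; edgeR, unadjusted p = 0.0011, adjusted p = 0.092), short of the threshold. The call depended on the setting. Cox6a2 fell past the threshold with DESeq2 (adjusted p = 0.00068, where 1.14% of genes were called lower), without WT 1 (edgeR, adjusted p = 0.035, log2 -0.96, 1.31% of genes) and without WT 2 (edgeR, adjusted p = 0.00036, log2 -1.52, 1.52% of genes). It did not with limma voom (adjusted p = 0.22) or, in edgeR, without any one of the other 4 libraries (adjusted p = 0.22 to 0.36). The exons of Cox6a2 overlap those of Itgad on the opposite strand, and the strand setting of the counting is not given in the sources used here. Itgad itself had 3 to 8 counts per library.

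The order of the WT libraries for Cox6a2, WT 1 above WT 3 above WT 2, was also that of the summed thalamus markers, of the summed mural cell markers and of the sum over all members. The sums of all other marker lists, such as those of neurons and microglia, took other orders. All 12 thalamus markers had fitted values below 0, and 5 were called lower. The 8 muscle markers overlapped between groups and summed to 12.3, 11.7 and 13.1 CPM in the WT libraries, against 11.7, 13.9 and 14.0 in those of NS-DADm mice. The part of thalamus RNA in the Cox6a2 value was not tested.

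**Figure D3:**
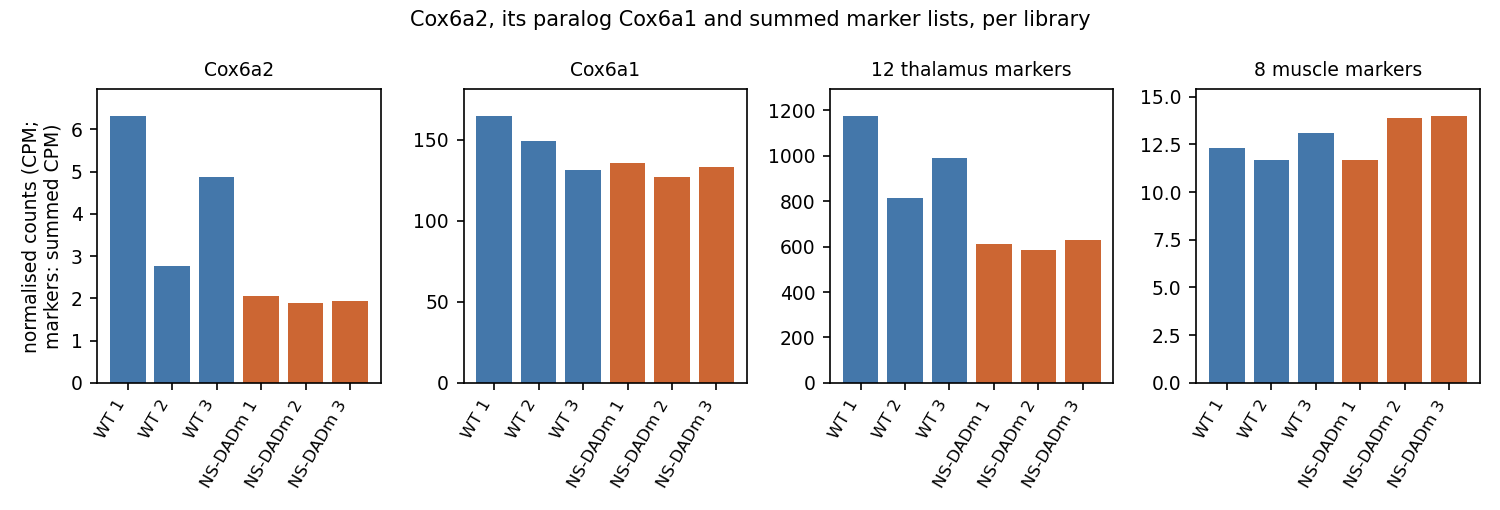
Normalised read counts of Cox6a2, of its paralog Cox6a1, and summed over 12 thalamus and 8 muscle markers (CPM, vertical axes from 0), with 1 bar per library. Cox6a2 spans 2.78 to 6.33 CPM among WT and 1.88 to 2.05 among NS-DADm libraries, the thalamus markers take the same order within WT, and the muscle markers and Cox6a1 overlap between groups.

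Cox6a1, the widely expressed form of the same subunit (chromosome 5, 115345642 to 115348981), measured 165, 149 and 131 CPM in WT libraries, with 136, 127 and 133 CPM in the NS-DADm ones. The groups overlapped, and the log2 fold change was -0.17 ± 0.072 SE (edgeR, adjusted p = 0.43). Per exon length, Cox6a2 stood at 3.22, 1.57 and 3.13% of Cox6a1 in WT and at 1.27, 1.24 and 1.22% in NS-DADm. Cox6c and Cox7b, small nuclear-encoded subunits, each had a log2 fold change of -0.12 without overlap between groups.

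Other subunits of complex IV with tissue-specific forms were dominated by the common form. Per exon length, Cox4i2, the form known from lung and hypoxia, stood at 0.228 ± 0.062% of Cox4i1 in WT and 0.240 ± 0.092% in NS-DADm (SD, n = 3), Cox7a1, a heart and muscle form, at 2.73 ± 0.70 and 2.43 ± 0.47% of Cox7a2, and Cox6b2, the testis form, at 1.35 ± 0.26 and 1.33 ± 0.14% of Cox6b1. None of these shares differed beyond the spread of the libraries. The interval for Cox4i2 itself was wide, -0.79 to 0.78 on the log2 scale, and it rested on 10 to 27 counts per library. Cox4i1, the common form, measured 321, 260 and 267 CPM in the WT libraries, against 271, 275 and 266 in those of NS-DADm mice. WT 1 alone lay above the rest, the groups overlapped, and the log2 fold change was -0.06. Log2 fold changes were -0.30 for Cox7a1, -0.12 for Cox7a2 and -0.04 for Cox7a2l. They were -0.09 for both Cox6b1 and Cox6b2, and -0.04 for Cox8a.

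The 3 remaining complex IV members were too rare to test. Cox7b2 had 10, 5 and 14 counts in WT and 4, 7 and 7 in NS-DADm, Cox8b had 2, 0 and 1 and 0, 0 and 3, and Cox8c had 1 count in WT 1 and none elsewhere. Cox4i2 and Ndufa4l2, a paralog of Ndufa4, are also known as transcripts of pericytes. Ndufa4l2 measured 2.45, 1.32 and 1.78 CPM in WT libraries, with 1.35, 1.27 and 1.75 CPM in the NS-DADm ones (log2 -0.34 ± 0.24 SE; edgeR, adjusted p = 0.68), and its groups overlapped. The 9 mural cell markers summed to 146, 113 and 118 CPM in the WT libraries, against 104, 107 and 110 in those of NS-DADm mice, with 5 of the 9 fitted below 0. Of these Rgs5 was called lower (log2 -0.55; edgeR, adjusted p = 0.0033), while 4 of the 9 were fitted above 0, up to a log2 fold change of 0.28. The part of mural cells in the Ndufa4l2 value was not tested. Ndufa4 measured 126, 124 and 133 CPM in WT libraries, with 118, 123 and 122 CPM in the NS-DADm ones, close but without overlap (log2 -0.08).

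Complex V, the ATP synthase, was represented by its catalytic head, stalks and membrane rotor. Atp5e, the epsilon subunit of the central stalk (chromosome 2, 174461072 to 174464105), measured 54.1, 43.3 and 44.1 CPM in the WT libraries, against 39.6, 40.3 and 40.3 in those of NS-DADm mice. WT 1 stood well above the others, and the groups did not overlap. The log2 fold change was -0.24 ± 0.080 SE (95% interval -0.41 to -0.06; edgeR, adjusted p = 0.28). Atp5h, of the peripheral stalk (chromosome 11, 115415689 to 115419962), measured 146, 123 and 127 CPM in WT libraries, with 115, 125 and 117 CPM in the NS-DADm ones, with NS-DADm 2 above WT 2 (log2 -0.15 ± 0.064 SE; edgeR, adjusted p = 0.43).

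The catalytic beta subunit Atp5b (chromosome 10, 128083273 to 128090391) measured 1102, 1011 and 1010 CPM in the WT libraries, against 992, 983 and 946 in those of NS-DADm mice, without overlap (log2 -0.10; edgeR, adjusted p = 0.51), and the delta subunit Atp5d had a log2 fold change of -0.12. Atp5s, a coupling factor, was the 1 member with all NS-DADm libraries above all WT libraries, at 15.7, 16.2 and 16.9 CPM in WT libraries, with 17.6, 17.2 and 17.7 CPM in the NS-DADm ones. Its log2 fold change was 0.11 ± 0.072 SE (95% interval -0.05 to 0.26; edgeR, adjusted p = 0.66). The rotor ring protein is encoded by Atp5g1, Atp5g2 and Atp5g3, whose log2 fold changes were -0.03, 0.02 and -0.07.

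Levels per length, as CPM per kilobase of exon, were compared within libraries. The median over the members of a complex was 62.2 ± 3.2 for complex I in WT and 59.5 ± 0.38 in NS-DADm libraries (SD, n = 3), 75.9 ± 1.1 and 75.9 ± 1.1 for complex II, 101 ± 2.7 and 96.97 ± 1.6 for complex III, 82.9 ± 4.4 and 76.1 ± 1.8 for complex IV and 112 ± 14 and 99.0 ± 2.9 for complex V. Within each of the 6 libraries complex I had the lowest median, complex V the highest and complex III the next highest. These medians run over all members grouped by symbol. Those of complex IV include rare tissue-specific forms that lower its median, with a lower quartile of 2.42 in WT against 42.0 in complex I. The place of complex IV without these forms was not examined. Complex V lay above complex III in 6 of 6 libraries, although the ranges of the 2 over the libraries overlapped. Complexes II and IV changed order, with IV above II in 4 of 6 libraries. The order of complexes II and IV depended on the length used, while complexes I, III and V kept their places in the means over libraries. By the length of the shortest coding transcript, an alternative added after seeing the data, the means over the 6 libraries were 81.3 for complex I, 93.45 for complex II, 106 for complex III, 82.8 for complex IV and 142 for complex V, so that complex IV lay near complex I and below complex II.

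Within a complex the levels per length spread widely. In WT libraries the highest members were Ndufa4 at 205 ± 7.6 CPM per kilobase, Sdha at 192 ± 3.6, Uqcrh at 192 ± 14, Cox4i1 at 369 ± 44 and Atp5b at 543 ± 28. The lowest with reads in complexes II, III and V were Sdhc at 24.01 ± 1.5, Uqcrq at 24.7 ± 2.6 and Atp5s at 10.2 ± 0.36. Some of the low values depended on the length used. Exon length was 3171 bases for Sdhc and 1827 for Uqcrq, while their shortest coding transcripts measured 815 and 405 bases. Their lowest places hold for exon length only. By exon length Atp5g1 stood at 6.26 ± 0.59% of Atp5g3 in WT libraries, but at 50.9 ± 4.8% by the length of the shortest coding transcript.

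**Figure D4:**
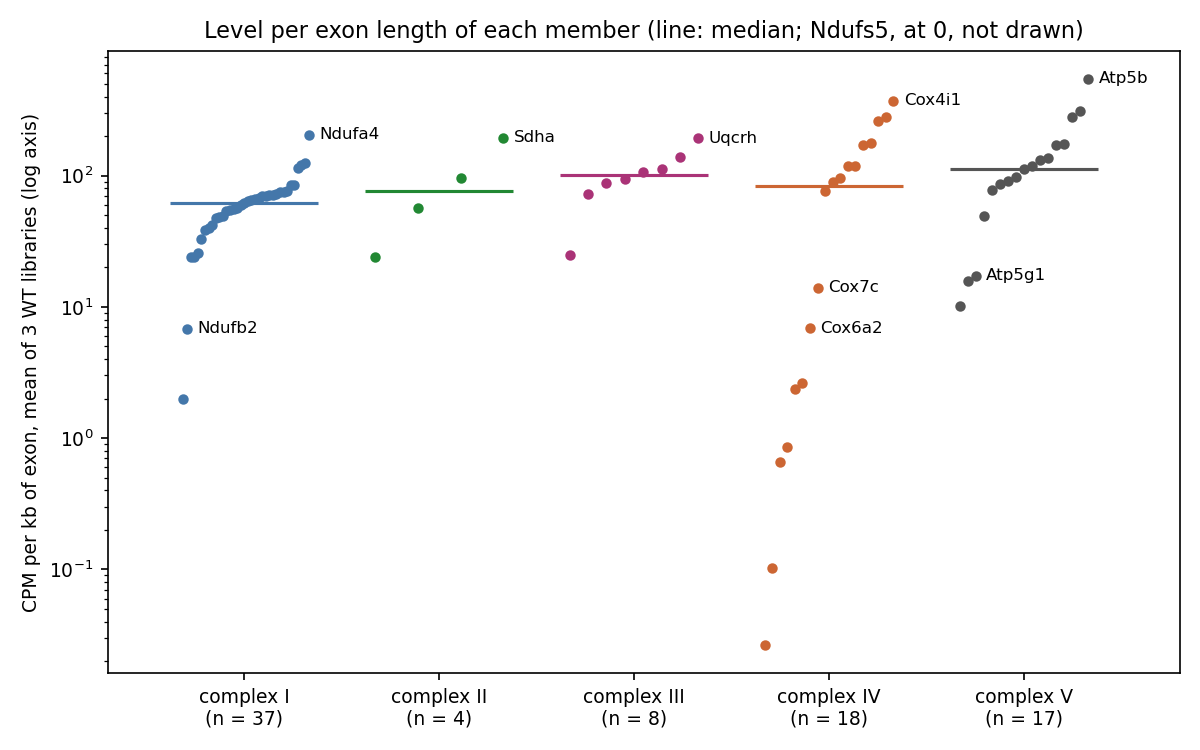
Level per exon length (CPM per kilobase, mean of the 3 WT libraries, log axis) of the members of complexes I to V; each point is a gene and each line the median of a complex. Atp5b is the highest at 543, Ndufs5, at 0, is not drawn, and members of the same complex spread over more than a factor of 10 in complexes I, IV and V.

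Ndufs5, an accessory complex I subunit (chromosome 4, 123712710 to 123718202), had 0 counts in all 6 libraries, which limits only reads that align to 1 place, to at most 0.109 to 0.124 CPM. Its longest coding transcript, of 680 bases, shares 99.4% identity over 319 bases with the processed pseudogene BC002163, which had 3 to 16 counts. Whether this copy accounts for the 0 was not tested. Reads that align equally well to several places were left out of the gene counts, so neither the 0 nor this limit bounds the level of the transcript. Another annotated gene at another locus with at least 97% identity over at least 100 bases exists for 16 of the 84 members, and their levels are uncertain for the same reason. Atp5h, Ndufs3, Uqcrb, Cox7a2l, Atp5g1 and Atp5g2 are among them, as is Cox7c, which matches Gm10012 at 99.6% over 233 bases and measured 13.9 CPM per kilobase in WT libraries. Exons of 21 members overlap a gene on the opposite strand.

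Across libraries the members moved together mainly in WT 1. Their median deviation in log2 CPM from the mean of the 6 libraries was 0.10 in WT 1, -0.02 in WT 2 and 0.02 in WT 3, and -0.06, -0.01 and -0.04 in NS-DADm 1, 2 and 3. Over all tested genes the same medians lay within 0.003 of 0. By complex, the WT 1 deviation was 0.10 for complex I, 0.04 for complex II, 0.07 for complex III, 0.14 for complex IV and 0.12 for complex V. NS-DADm 1 was the lowest of the 6 libraries in 35 of the 80 members. Transcript GC content moved with the WT 1 value. Across genes, which are not independent replicates, Spearman's rho between GC content and the ratio of WT 1 to the other WT libraries was 0.39 over the 80 members and 0.46 over 14873 genes, while GC content and the fitted fold change had a rho of -0.28 over the members and 0.005 over all genes. For transcript length, rho with the WT 1 ratio was -0.28 over the members and -0.19 over all genes. With the fitted fold change it was 0.22 and 0.02. The median transcript length was 891.5 bases for the members and 3187 for all tested genes, and the median GC content 51.6 and 50.4%. The part of base composition or of transcript length in the members' values was not tested.

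**Figure D5:**
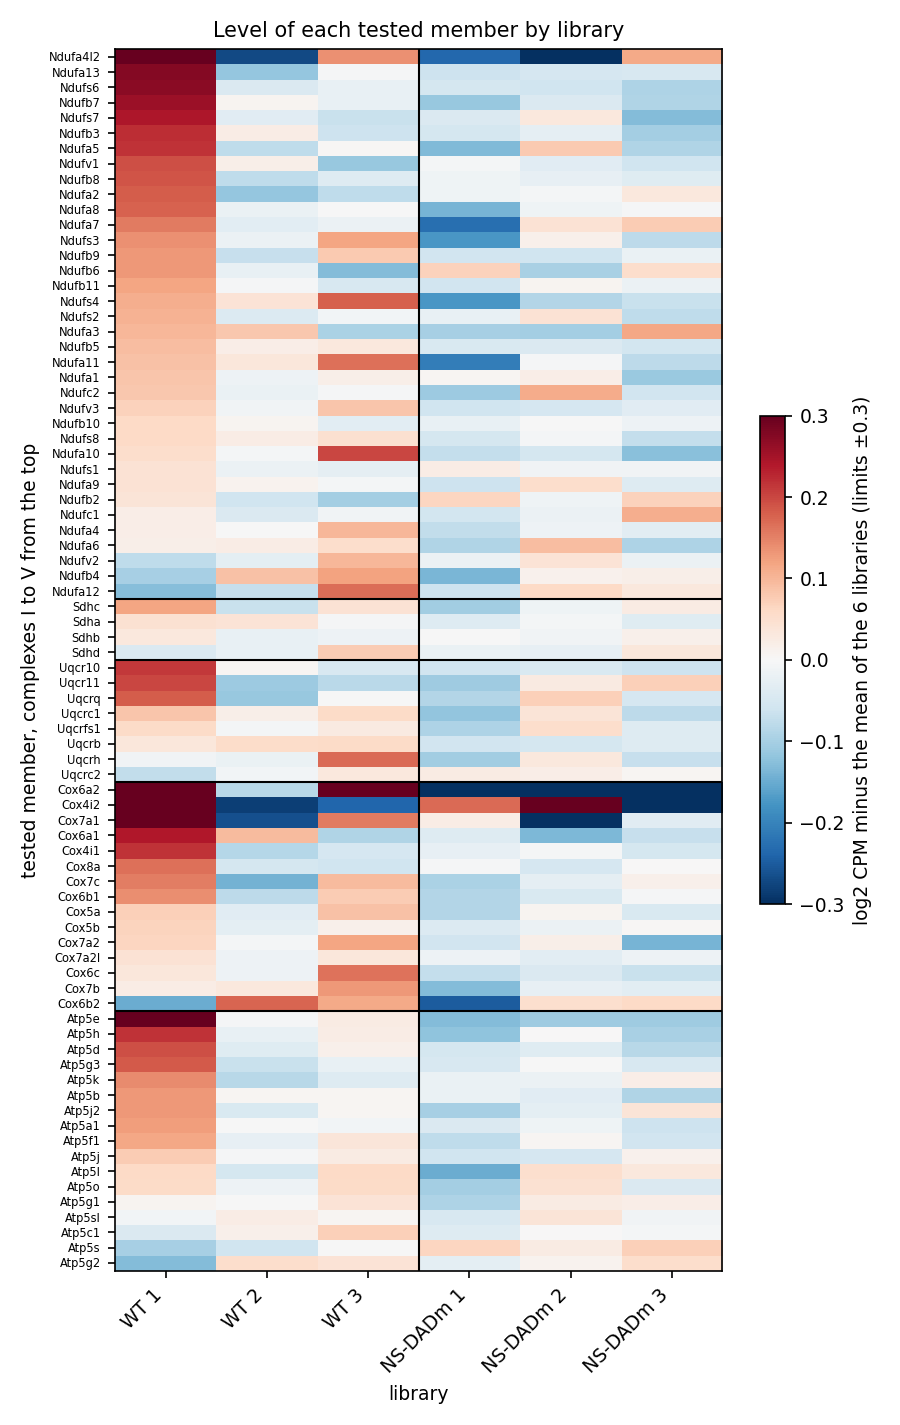
Log2 CPM of each tested member minus its mean over the 6 libraries (colour, limits at 0.3 on either side), with members in rows by complex and libraries in columns; red is above and blue below the mean. The WT 1 column is the reddest, being the highest of the 6 in 50 of 80 members.

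Other genes of the pathway were read from lists of known factors. Of the 6 subunits and partners that the symbol rule leaves out, such as Cyc1, Cycs and the ATP synthase inhibitor Atpif1, 0 were called and 6 of 6 lay below 0, with a median log2 fold change of -0.05. Assembly factors gave 0 calls among 15 for complex I (median 0.01), 4 for complex II (-0.003), 20 for complex IV (-0.007) and 3 for the ATP synthase (-0.06), where Atpaf1, which assembles the catalytic head, had a log2 fold change of -0.17 (edgeR, adjusted p = 0.25). The 12 citric acid cycle genes (median -0.03), 77 mitochondrial ribosome genes (-0.02), 15 regulators of mitochondrial genes (0.02) and 80 cytosolic ribosome genes (-0.006) also held 0 calls. Among the regulators, Pprc1 and Ppargc1b, of the PGC-1 coactivator family, had log2 fold changes of 0.15 and 0.22 (edgeR, adjusted p = 0.45 and 0.51).

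The 6 complex III assembly factors held the only call of these lists. Ttc19, which clears fragments of the Rieske protein from complex III, measured 86.9, 82.0 and 89.0 CPM in the WT libraries, against 70.5, 71.9 and 72.1 in those of NS-DADm mice. The groups were well separated, and Ttc19 fell by a log2 fold change of -0.27 ± 0.050 SE (edgeR, adjusted p = 0.034). It was no longer past the threshold with library totals in place of scaling factors (edgeR, adjusted p = 0.052) or without WT 3 or any 1 of the NS-DADm libraries (edgeR, adjusted p = 0.10 to 0.21). Ttc19 (chromosome 11, 62281473 to 62328451, plus strand) overlaps Ncor1 (62316426 to 62458541, minus strand), 1 of the genes mutated in this line, over 12026 bases of gene span but only 1 base of exon. Whether the difference is tied to the mutated locus or to the mutation's action cannot be told apart. Lyrm7, a chaperone of the Rieske protein, also lies on chromosome 11 (54826866 to 54860916, minus strand). Any tie of its difference to the mutated locus was not tested. Lyrm7 measured 14.8, 11.3 and 11.1 CPM in WT libraries, with 16.2, 25.9 and 24.5 CPM in the NS-DADm ones. The groups did not overlap, NS-DADm 1 lay close to WT 1, and the log2 fold change was 0.84 ± 0.20 SE (edgeR, adjusted p = 0.18). It rose past the threshold with DESeq2 (adjusted p = 1.87e-05) and without NS-DADm 1 (edgeR, adjusted p = 0.0065).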

How the data were processed

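The deposited values, made by the authors, were raw read counts for each gene symbol, with a table for every library. TopHat2 2.0.9, HTSeq and the build mm10 are named in the submitters' processing notes. The HTSeq version, the annotation and whether strand was used in counting are not given in these sources. Per the series' design text each library came from 1 mouse. The 5 rows of unassigned reads stayed out of library sizes and tests. Of all counted entries, 13.3 to 14.8% were outside genes, 1.00 to 1.06% ambiguous and 14.3 to 16.5% not unique.

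After filterByExpr and TMM scaling, the robust quasi-likelihood test of edgeR 4.0.16 (R 4.3.3) was run without covariates. P-values were adjusted by Benjamini-Hochberg over all 15894 tested genes, and an adjusted p under 0.05 made a call. SE was derived from the F statistic. The fit was also run on simulated counts with known changes larger than those of most members. That run does not show how well differences of the members' size are detected. Positions, exon lengths and transcripts came from the GENCODE M21 basic annotation of the same build, which matched all 84 members, and copies from BLAST 2.17.0. Promoter windows came from RefSeq (GRCm38.p6), and the NRF1 and YY1 motifs were searched with 1 letter fewer than in a first search. Limits for a count of 0 used 3 counts and cover counting error only. Figures used matplotlib 3.10.9.

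Members and lists were chosen with earlier results of these data known. Genes were named by a rule: called members, the 4 smallest p in each complex, the highest and lowest per length, sets of isoforms, untested members, and in other lists called genes and the 2 smallest p. Atpif1, Cyc1, Cycs, Cox7c, Ndufb7 and Ncor1 were named outside it, after values were seen. Alternatives were RLE and upper-quartile scaling, library totals, no filter, a minimum of 1 CPM, DESeq2 1.42.0, limma 3.58.1 voom, a replicate block, each library left out and, added after seeing the data, another transcript length. The sources used here do not say whether replicate numbers pair the libraries, so the main fit used no block.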

Additional observations from a re-analysis of the deposited data

How the results depend on the processing

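Over all genes 104 were called, against 203 with no filter on low counts, 282 with DESeq2, 409 with the replicate block and 5 to 312 with 1 library left out. The count of members called lower was 0, against 1 (Cox6a2) with DESeq2, 1 with the replicate block (edgeR, adjusted p = 0.0025, where 2.09% of genes were called lower) and 0 to 1 with 1 library left out. No member was called higher in any fit run. Deviations of same-numbered libraries correlated at 0.12, 0.083 and -0.037. NS-DADm 1 and 2 correlated best with the same-numbered WT library, and NS-DADm 3 with WT 2 (0.044). With 3 libraries a group, these values do not settle whether replicate numbers pair the libraries. The median log2 fold change of each complex moved by less than the SD between libraries in every alternative. With the shortest coding transcript as length, chosen after seeing the data, the median level per kilobase was 81.3 for complex I, 93.45 for complex II, 106 for complex III, 82.8 for complex IV and 142 for complex V. Uncalled values near 0 changed sign in 21 of 517 fits of named genes. Sdhd was 0.0037 with upper-quartile factors, 0.0048 with library totals and -0.028 to 0.029 with 1 library left out. Sdhb was -0.0035 with no filter and -0.0072 to 0.023 with 1 library left out. Cox4i2 was 0.0078 with upper-quartile factors, 0.0083 with totals, 0.0065 with the block and -0.29 to 0.38 with 1 library left out. With 1 library left out, Uqcrq ran from -0.11 to 0.041, Cox4i1 from -0.12 to 0.044, Cox6b2 from -0.19 to 0.0060, Cox8a from -0.079 to 0.043, Atp5g1 from -0.052 to 0.0077, Atp5g2 from -0.031 to 0.055 and Atp5g3 from -0.12 to 0.016. With 3 mice a group, differences of the size of most members' (an SE near 0.06) were not resolved after adjustment over all genes.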
